A study of Mus musculus with 3 samples.

Results

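Rn45s, the 1 copy of the 45S ribosomal RNA gene that the mouse assembly mm9 holds on chromosome 17, was followed in 3 chromatin immunoprecipitation libraries. It is 1 region, set against 309041 windows of 8 kb that make up the rest of chromosomes 1 to 19 apart from 2 satellite stretches. The copy was chosen by its position, chr17:39979001-39987000, with the read counts of these files already known. Its read level is therefore given as a description and supports nothing by itself. The cells were mouse embryonic stem (ES) cells of strain C57BL/6, kept on gelatin with serum and ESGRO and without feeder cells, and all 3 libraries share this description. One library was made with an in-house antibody against TET2, one with a commercial antibody (Novus) against OGT, and one with an antibody against H2B S112GlcNAc from Ryoji Fujiki. The labels name neither a cell line nor a clone, and they do not say whether the 3 libraries came from 1 culture. Chromatin reads carry no expression of marker genes, so the cell type rests on the labels. Each antibody had 1 library, so no value has a replicate check, and intervals (95%, exact unless stated) cover counting error alone, since reads copied by PCR are not independent molecules.

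RNA polymerase I transcribes the 45S gene in the nucleolus as 1 long precursor, which is cut into the 18S and 28S RNAs of the ribosome and a smaller one. The gene is present in many near-identical copies in tandem arrays on several chromosomes, some of them active and others silent and DNA-methylated. Assemblies leave most of these arrays out. TET2 oxidises 5-methylcytosine in DNA. OGT attaches O-linked N-acetylglucosamine to serine and threonine of nuclear and cytoplasmic proteins, and H2B S112GlcNAc is histone H2B with that sugar on the serine the name gives. The comparison asks whether the 3 antibodies left different amounts of DNA from this gene. Satellite DNA, the other repeat measured here, consists of short units repeated in tandem, and much of it lies at centromeres.

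The TET2 library held 3832237 reads, that of OGT 2179445 and that of H2B S112GlcNAc 4647963, all of 44 bp. Of these, 3714882, 2110802 and 4501091 lay on chromosomes 1 to 19, and every level below is scaled to these totals, as reads per 1000000 reads on chromosomes 1 to 19 (RPM). Since the OGT file gives sequence identifiers where the others give chromosome names, the coordinates were compared inside the copy. The correlation of reads per base and strand between TET2 and OGT was 0.160 in register, 0.133 with OGT moved 1 bp to the right and 0.130 with it moved 1 bp to the left. H2B S112GlcNAc and OGT gave 0.170, 0.138 and 0.130. Both pairs were highest in register.

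The Rn45s interval was among the most read-rich places of each library. It held 5577 TET2 reads, 2855 OGT reads and 8181 H2B S112GlcNAc reads. In RPM the TET2 level was 1501 (1462 to 1541), the OGT level 1353 (1303 to 1403) and the H2B S112GlcNAc level 1818 (1778 to 1857). The H2B S112GlcNAc library had the highest level and the OGT library the lowest, and the 3 counting intervals did not meet. As a share of all reads the copy took 0.146% of the TET2 library (0.142 to 0.149, Clopper-Pearson), 0.131% of the OGT library (0.126 to 0.136) and 0.176% of the H2B S112GlcNAc library (0.172 to 0.180). Of the 309041 windows of the same length outside the repeats named here, 2 held as many reads as the copy in the TET2 library, 3 in the OGT library and 2 in the H2B S112GlcNAc library. The median window held 9, 5 and 11 reads.

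The neighbourhood of the copy was sparse. The 50 kb on each side together held 67 TET2, 35 OGT and 90 H2B S112GlcNAc reads. The densities, 0.67, 0.35 and 0.9 reads per kb, were below the means over chromosomes 1 to 19, which were 1.5, 0.854 and 1.82 reads per kb. Over the flanks the copy stood 1040.5-fold higher in TET2 (818 to 1345), 1019.6-fold in OGT (731 to 1467) and 1136-fold in H2B S112GlcNAc (923 to 1415). These 3 intervals overlapped widely, because the flanks held few reads. Against the mean of chromosomes 1 to 19, a reference added after seeing the data, the folds were 464, 418 and 562. How many gene copies send their reads to this place and how much an antibody enriched them cannot be told apart, since no input library was used here.

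**Figure D1:**
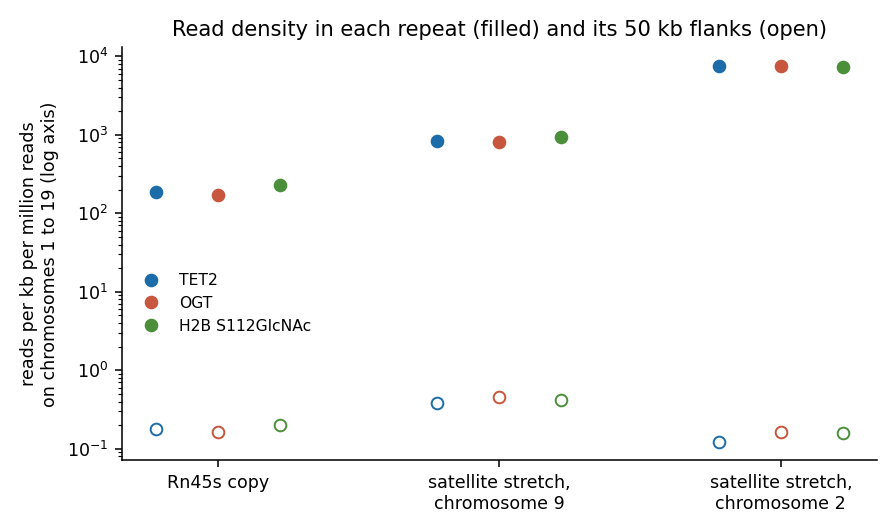
RPM per kb (log axis) in the Rn45s copy and the satellite stretches (filled points) and in the 50 kb on each side of them (open points), 1 point per library. In every library the Rn45s copy lies about 3 orders of magnitude above its flanks and below both satellite stretches.

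Reads filled a sharply bounded part of the interval. Taking every bin of 100 bp with at least 10 reads over the 3 libraries, a minimum chosen after seeing the data, 59 of 80 bins qualified and formed 1 unbroken stretch from 39979901 to 39985800. Reads covered bases 39979940 to 39985776 of it, a length of 5837 bp. The first of these bins held 51 TET2, 14 OGT and 52 H2B S112GlcNAc reads, and the bin before it held 0 in all 3. The last held 42, 20 and 46 reads, and the bin after it again 0 in all 3. The remaining 2100 bp of the interval held 3 TET2, 4 OGT and 0 H2B S112GlcNAc reads. Where the pieces of the precursor lie within the covered stretch is not given here, because no sequence or annotation of mm9 was used.

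Within the stretch the density rose and fell by more than an order of magnitude, with a similar shape in each library. Bins ranged from 7 to 206 reads in TET2 (median 98), from 3 to 125 in OGT (median 49) and from 23 to 328 in H2B S112GlcNAc (median 154). Scaled to the library, the fullest bins reached 55.5, 59.2 and 72.9 RPM. The coefficient of variation over the 59 bins was 0.534, 0.528 and 0.530. The bin with the highest summed level, 39981201 to 39981300, held 206 TET2, 100 OGT and 328 H2B S112GlcNAc reads. Next came 39982701 to 39982800, with 197, 125 and 281 reads, which was the fullest bin of the OGT library. The other 3 of the 5 fullest bins were 39981101 to 39981200 with 175, 87 and 226 reads, 39982401 to 39982500 with 165, 80 and 245, and 39981301 to 39981400 with 167, 81 and 208. All 5 lay in the stretch from 39981101 to 39982800.

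**Figure D2:**
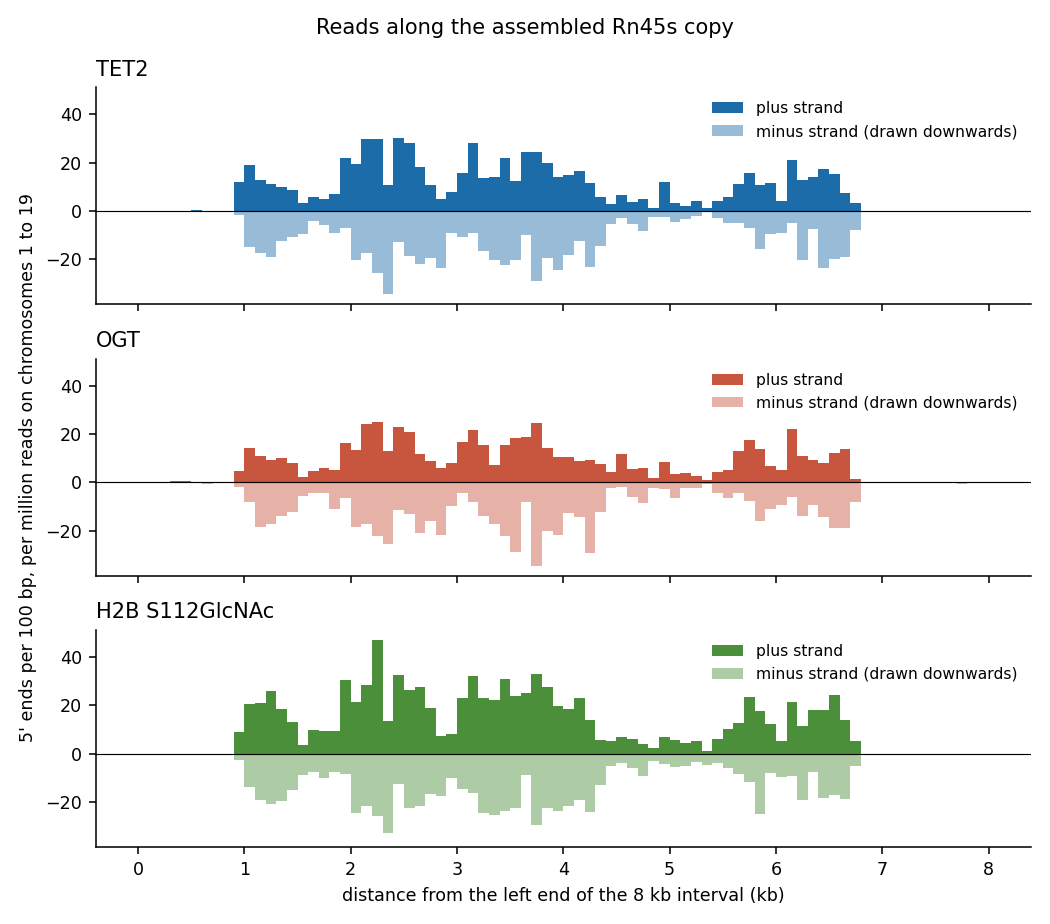
Read 5′ ends per 100 bp along the Rn45s interval, in RPM, for each library, with the plus strand drawn upwards and the minus strand downwards. Each library fills the stretch from 0.9 to 6.8 kb, is fullest between 2 and 4.3 kb and is low from 4.4 to 5.6 kb.

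Low stretches were shared as well. Runs of at least 3 neighbouring bins under 50% of the median summed level were picked out after the profile was seen, so they are described without a test. The longer run, 39983401 to 39984600, covered 12 bins, which is 20.3% of the stretch, and held 6.49% of its TET2 reads, 7.82% of its OGT reads and 6.78% of its H2B S112GlcNAc reads. Its emptiest bin, 39984301 to 39984400, held 7 TET2, 3 OGT and 25 H2B S112GlcNAc reads. The shorter run, 39980501 to 39980800, covered 3 bins and held 126, 58 and 222 reads. In the longer run the OGT level, 8.80 RPM per bin, was above that of TET2, 8.12, while over the whole stretch it was below it, 22.9 against 25.4. The TET2 to OGT ratio there was 0.922 (0.778 to 1.09), so at this depth the 2 libraries could not be told apart in the longer run.

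The likeness of the 3 profiles was high at 100 bp, while single bases held few reads. Over the 59 bins Pearson's r was 0.914 for TET2 and OGT, 0.942 for H2B S112GlcNAc and TET2 and 0.912 for H2B S112GlcNAc and OGT. Spearman's rho was 0.913, 0.925 and 0.913. Bins share the underlying sequence and its match to other copies, so these values describe 1 stretch and are no replicates. At single bases and strands, 673 positions were used by all 3 libraries. Of the 11588 places where a read can start, TET2 used 32.7%, OGT 19.7% and H2B S112GlcNAc 42.7%. Even and independent use would give an overlap equal to the share used by the partner library. Each overlap below lay above that share, and how much the uneven density adds was not tested. TET2 and OGT shared 1051 positions, which was 27.7% of the TET2 positions and 46.1% of the OGT positions. H2B S112GlcNAc and TET2 shared 2151, which was 43.5% and 56.7% of each, and H2B S112GlcNAc and OGT shared 1309, which was 26.5% and 57.4%.

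Between antibodies the copy differed modestly, with H2B S112GlcNAc above TET2 and TET2 above OGT. The ratio of scaled reads was 1.11 for TET2 over OGT (1.06 to 1.16), 1.21 for H2B S112GlcNAc over TET2 (1.17 to 1.25) and 1.34 for H2B S112GlcNAc over OGT (1.29 to 1.4). This order rested on counting all reads. With each 5′ end counted once and scaled to the distinct ends on chromosomes 1 to 19, the ratios were 0.944 for TET2 over OGT (0.896 to 0.995), 1.07 for H2B S112GlcNAc over TET2 (1.03 to 1.12) and 1.01 for H2B S112GlcNAc over OGT (0.961 to 1.06), so the first turned and the last no longer differed from 1. Counting each end once lowers the deeper library more by construction, so the distinct ends do not decide the order either. On all reads, none of the 3 pairs reached 1.5-fold. Among windows of 8 kb with at least 30 reads in the pair, 21.5% had TET2 at least 1.5-fold over OGT and 9.64% at least 1.5-fold under it. The shares were 11.7% and 14.9% for H2B S112GlcNAc over and under TET2, and 16.1% and 12.6% for H2B S112GlcNAc over and under OGT. Most of these windows hold far fewer reads than Rn45s, so their ratios scatter more widely. Scaled to the flanks in place of chromosomes 1 to 19, the 3 ratios became 1.02 (0.676 to 1.54), 1.09 (0.795 to 1.5) and 1.11 (0.752 to 1.65, normal approximation on the log scale), so the flanks were too thin to show a difference.

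Of the 3 pairs, only H2B S112GlcNAc over OGT kept its direction in every measured segment of the copy, and the others fell below 1 in places. In 1 kb segments of the interval the H2B S112GlcNAc to OGT ratio was above 1 in all 7 segments with at least 20 reads in the pair. It was highest from 39980001 to 39981000, at 1.55 (1.39 to 1.74), with 1319 against 398 reads, and lowest from 39983001 to 39984000, at 1.20 (1.06 to 1.36), with 907 against 354. The first segment, which holds only 100 bp of the covered stretch, had 52 against 17 reads and an interval of 0.816 to 2.65. The H2B S112GlcNAc to TET2 ratio was highest from 39984001 to 39985000, at 1.44 (1.28 to 1.61), and lowest at 0.795 (0.532 to 1.19) in that thin first segment. From 39985001 to 39986000 it was 1.07 (0.975 to 1.18). The TET2 to OGT ratio ran from 0.946 (0.814 to 1.10) between 39984001 and 39985000 to 1.19 (1.08 to 1.30) between 39981001 and 39982000, apart from the first segment, at 1.80 (1.03 to 3.32).

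Single bins scattered around these values. Among bins with at least 20 reads in the pair, H2B S112GlcNAc was above OGT in 50 of 59, above TET2 in 48 of 59, and TET2 was above OGT in 38 of 58. The ratio was at least 1.5 in 21 of 59 bins for H2B S112GlcNAc over OGT, in 9 of 59 for H2B S112GlcNAc over TET2 and in 4 of 58 for TET2 over OGT, which is 35.6%, 15.3% and 6.90% of the bins. Over windows of 100 bp elsewhere on chromosomes 1 to 19 with at least 20 reads in the pair, the shares were 7.51%, 8.67% and 14.8%. No bin of the copy fell to 1.5-fold under in any pair, against 37.2%, 24.3% and 28.4% of those windows. The 59 bins are pieces of 1 gene copy and the windows are places picked for many reads, so this sets the counts side by side and is no test. The 95% interval of a bin left out the ratio of the whole interval in 4 of 58 bins for TET2 over OGT, 10 of 59 for H2B S112GlcNAc over TET2 and 6 of 59 for H2B S112GlcNAc over OGT.

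The bins at the ends of the order were mostly thin. The highest H2B S112GlcNAc to OGT ratio, 3.91 (1.19 to 20.2), was in the emptiest bin, starting at 39984301, which also gave the highest H2B S112GlcNAc to TET2 ratio, 2.95 (1.24 to 8.07). Among fuller bins, H2B S112GlcNAc over OGT reached 1.97 (1.44 to 2.73) at 39982301 to 39982400, with 214 against 51 reads. The lowest, 0.776 (0.480 to 1.28), was at 39983501 to 39983600, with 48 against 29 reads. TET2 over OGT was lowest at 39982501 to 39982600, 0.688 (0.523 to 0.905), with 121 against 100 reads. It was highest at 39979901 to 39980000, 2.07 (1.13 to 4.05), with 51 against 14 reads. Among fuller bins it was high at 39985401 to 39985500, 1.85 (1.33 to 2.62), with 153 against 47 reads. In each of these TET2 to OGT bins the interval of the ratio did not reach the value of the whole copy, 1.11.

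**Figure D3:**
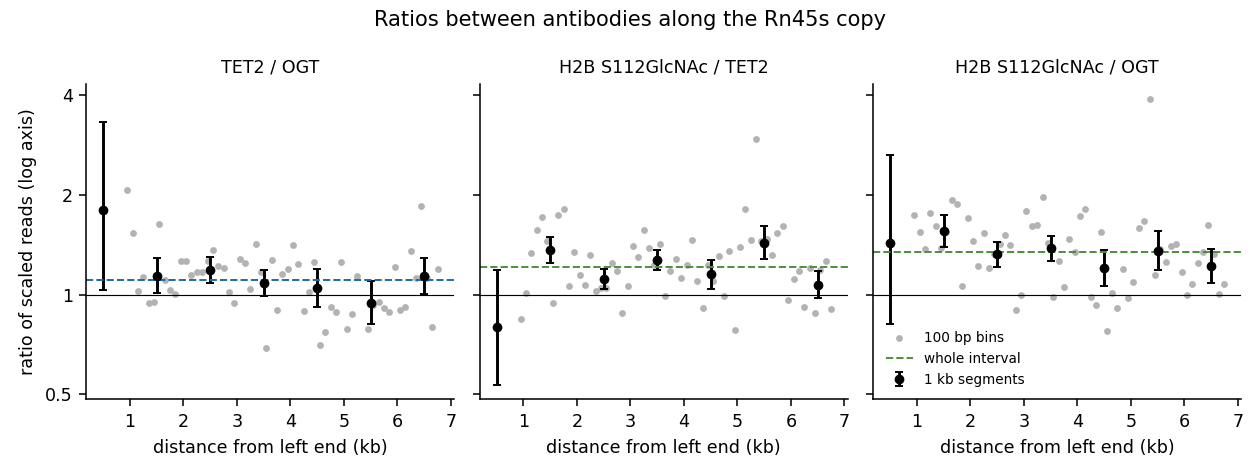
Ratios of scaled reads along the Rn45s interval for the 3 pairs of antibodies (log axis), in bins of 100 bp with at least 20 reads in the pair (grey) and in 1 kb segments with 95% exact intervals (black). The dashed lines mark the whole interval, 1.11, 1.21 and 1.34, and the wide bar at the left is the segment that holds only 100 bp of the covered stretch.

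The satellite stretches held far more reads than Rn45s and, with all reads of both strands counted, showed smaller differences between antibodies. The stretch chr9:2999001-3039000 held 125043 TET2, 68052 OGT and 169151 H2B S112GlcNAc reads, and chr2:98502001-98508000 held 166785, 95030 and 196612. Their H2B S112GlcNAc to OGT ratios were 1.17 (1.16 to 1.18) and 0.970 (0.963 to 0.978), against 1.34 at Rn45s. The ratio of these ratios does not depend on how the libraries are scaled. Relative to the chromosome 9 stretch the H2B S112GlcNAc to OGT ratio of Rn45s was 1.15 times as high (1.10 to 1.20, normal approximation on the log scale), and relative to the chromosome 2 stretch 1.39 times (1.33 to 1.45). For H2B S112GlcNAc over TET2 the values were 1.08 (1.05 to 1.12) and 1.24 (1.20 to 1.29). For TET2 over OGT they were 1.06 (1.02 to 1.11) and 1.11 (1.06 to 1.17). All 6 intervals lay above 1 on all reads. They did so on distinct 5′ ends too, but there the direction follows in part by construction. The first library of each pair is the deeper one, and positions run out sooner at the satellites than at Rn45s. Distinct ends are thus no separate support. On distinct ends the values relative to chromosomes 9 and 2 were 1.393 and 1.861 for H2B S112GlcNAc over OGT. For TET2 over OGT they were 1.258 and 1.499. What turned on distinct ends was how far the ratios lay from 1. For the pairs with OGT the ratio was further from 1 at the satellites than at Rn45s. The H2B S112GlcNAc to OGT ratio of distinct ends was 0.725 on chromosome 9 and 0.543 on chromosome 2, against 1.01 at Rn45s, and that of TET2 to OGT was 0.751 and 0.630, against 0.944. Depth bears on these values. On chromosome 2 the TET2, OGT and H2B S112GlcNAc libraries held 3532, 3191 and 3710 distinct ends, nearly alike although their read counts were not. Where positions run out, scaling to depth lowers the ratio of the deeper library by construction. These values alone therefore do not show a difference between antibodies. On all reads, the higher H2B S112GlcNAc to OGT ratio at Rn45s held for both strands together and not for each. On chromosome 9 the H2B S112GlcNAc to OGT ratio was 2.86 (2.81 to 2.91) on the plus strand and 0.751 (0.743 to 0.759) on the minus strand, and on chromosome 2 it was 0.839 (0.831 to 0.846) and 1.47 (1.44 to 1.49). At Rn45s it was 1.52 and 1.18, thus below the chromosome 9 stretch on the plus strand and below the chromosome 2 stretch on the minus strand. The spread between repeated libraries was not measured.

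With all reads counted, the H2B S112GlcNAc to OGT ratio of Rn45s was at the upper end of those in read-rich windows. The windows were not compared on distinct 5′ ends, on which the ratio of Rn45s was 1.01 (0.961 to 1.06). Of 115 windows of 8 kb with at least 300 reads in the pair, a floor chosen after seeing the data, 0 exceeded its 1.34, the highest being 1.33, and their median was 0.820. With lower floors some windows passed it: 2 of 208 at 200 reads, the highest at 1.48, and 28 of 536 at 100 reads, the highest at 2.00. Each of these windows holds few reads, and the 95% interval lay wholly above 1.34 in 0 of them. For H2B S112GlcNAc over TET2, 7 of 151 windows with at least 300 reads exceeded the 1.21 of Rn45s, with a median of 0.866. For TET2 over OGT, 15 of 109 exceeded the 1.11 of Rn45s, with a median of 0.934. Besides the repeats named here, the 2 fullest windows by the summed RPM of the 3 libraries were 3104001 to 3112000 of chromosome 12 and 35112001 to 35120000 of chromosome 9. The first held 19091 TET2, 11293 OGT and 19837 H2B S112GlcNAc reads, and the second 15827, 9123 and 17655. Their H2B S112GlcNAc to OGT ratios were 0.824 (0.805 to 0.843) and 0.908 (0.885 to 0.931). The next were on chromosome 6 at 103592001 to 103600000, with a ratio of 0.993 (0.928 to 1.06), and on chromosome 13 at 77576001 to 77584000, with 1.16 (1.08 to 1.25). The fifth by this sum, on chromosome 7 at 134736001 to 134744000, held 3059 OGT reads against 25 in each of the others.

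**Figure D4:**
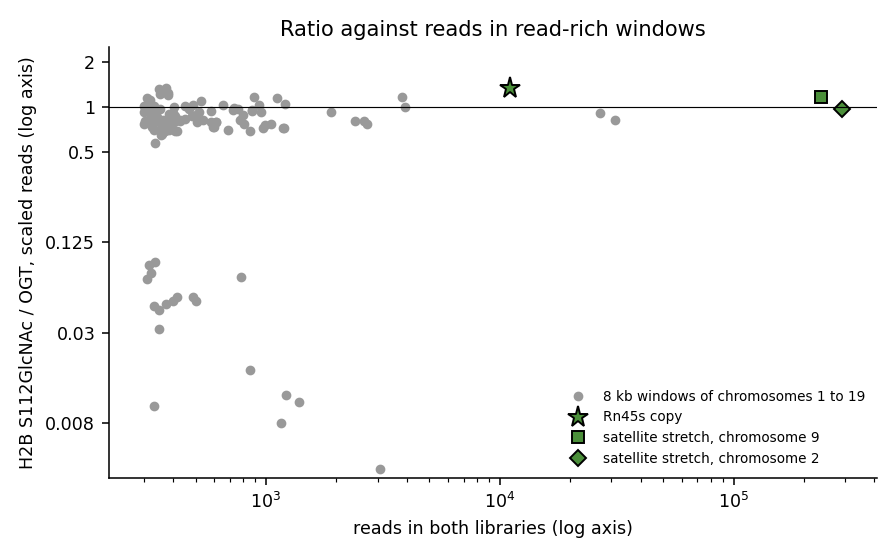
H2B S112GlcNAc to OGT ratio of scaled reads against the reads of both libraries (both axes log) for 8 kb windows of chromosomes 1 to 19 with at least 300 reads in the pair (grey), the Rn45s copy (star) and the whole satellite stretches (square and diamond). The Rn45s copy, at 1.34, lies above all 115 windows at this floor, the highest being 1.33, and above both satellite stretches, and the group of windows far below 1 holds mostly OGT reads.

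In level over the 3 libraries no window came near the copy. The nearest by the distance of log2 levels, 2.38 away, was the window of chromosome 6 named above. It held 605 RPM in the TET2 library, 599.8 in the OGT library and 595 in the H2B S112GlcNAc library. The next nearest were the windows named on chromosomes 9, 13 and 12, at 2.51, 2.57 and 2.95, and one on chromosome 18 at 90768001 to 90776000, at 3.25. Reads were spread more widely over the copy than over these windows. It took 43 bins of 100 bp to hold 90% of the TET2 reads of the Rn45s interval, and 44 and 43 bins for the OGT and H2B S112GlcNAc reads. In the 5 nearest windows it took from 2 to 4 bins in every library.

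Reads at Rn45s shared positions more often than in the library as a whole and far less than at the satellites. The 5577 TET2 reads lay at 3794 distinct 5′ ends, the 2855 OGT reads at 2286 and the 8181 H2B S112GlcNAc reads at 4947. This is 1.47, 1.25 and 1.65 reads per position, against 1.16 in each library as a whole. No position held more than 9 TET2, 5 OGT or 8 H2B S112GlcNAc reads, and 67.2%, 79.4% and 59.1% of the positions held a single read. The other positions, with 2 or more reads, took 54.3% of the TET2 reads, 36.5% of the OGT reads and 64.3% of the H2B S112GlcNAc reads. At the satellite stretch of chromosome 2 a position held 47.2, 29.8 and 53.0 reads on average and up to 1490, and at that of chromosome 9 it held 4.57, 3.28 and 5.25 and up to 115. In the window on chromosome 6 that came nearest in level the values were 8.74, 5.86 and 10.4.

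The copy offers a limited number of positions, which bears on counts of distinct 5′ ends. A read can start at 11588 places over both strands of the covered stretch, and TET2 used 32.7% of them, OGT 19.7% and H2B S112GlcNAc 42.7%. If the same numbers of reads fell evenly on these places, 4425, 2527 and 5868 distinct ends would be expected in the order TET2, OGT and H2B S112GlcNAc, against 3791, 2282 and 4947 found in the stretch. Drawn down by calculation to the 2851 reads of OGT, TET2 would keep 2304 and H2B S112GlcNAc 2335, close to the 2282 of OGT. By construction the deeper library loses more reads when each position is counted once.

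With all reads counted, strand use differed between the libraries at Rn45s. The plus strand held 2754 of 5577 TET2 reads, 49.4% (48.1 to 50.7), 1350 of 2855 OGT reads, 47.3% (45.4 to 49.1), and 4383 of 8181 H2B S112GlcNAc reads, 53.6% (52.5 to 54.7). Elsewhere on chromosomes 1 to 19 the share was nearly the same in all 3 libraries, at 52.9%, 53.0% and 52.8%. The H2B S112GlcNAc to OGT ratio was accordingly 1.52 (1.43 to 1.62) on the plus strand and 1.18 (1.11 to 1.26) on the minus strand of the copy. The plus to minus odds of H2B S112GlcNAc were 1.29 times those of OGT (1.18 to 1.4, normal approximation) and 1.18 times those of TET2 (1.11 to 1.27). Those of TET2 were 1.09 times those of OGT (0.994 to 1.19). On distinct 5′ ends the plus strand of the copy held 1854 of 3794 in TET2, 1094 of 2286 in OGT and 2547 of 4947 in H2B S112GlcNAc. The direction was the same in each library, the shares of OGT and H2B S112GlcNAc were closer to even, and intervals were not computed. With all reads counted, the strands at the satellite stretches were less even than at Rn45s in all cases but H2B S112GlcNAc on chromosome 9. The plus share was 25.7%, 19.7% and 48.2% for TET2, OGT and H2B S112GlcNAc on chromosome 9, and 77.1%, 79.0% and 68.3% on chromosome 2. On distinct 5′ ends the chromosome 2 stretch was close to even. It held 1755 plus and 1777 minus ends in TET2, 1580 and 1611 in OGT, and 1864 and 1846 in H2B S112GlcNAc. Chromosome 9 stayed uneven, with 9998 and 17348, 6339 and 14384, and 15090 and 17100. The ratios by strand show that the size of the difference between antibodies at Rn45s depends on the strand counted, and its cause was not tested.

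The minus-strand profile of the copy lay to the right of the plus-strand profile. Over the 59 bins, plus and minus reads of the same bin correlated with r of 0.460 in TET2, 0.453 in OGT and 0.652 in H2B S112GlcNAc. With the minus strand taken from the next bin to the right, r was 0.835, 0.620 and 0.888. At single bases the correlation of plus 5′ ends with minus 5′ ends further right was weak in every band of distances. Averaged in bands of 20 bp it was highest at 100 to 119 bp in TET2, 0.110, and at 40 to 59 bp in OGT and H2B S112GlcNAc, 0.0626 and 0.154. At a distance of 43 bp, where reads of opposite strands cover the same bases, it was 0.0923, 0.0838 and 0.152. At the satellite stretches the band from 40 to 59 bp was highest in all 3 libraries, and r at 43 bp was 0.698, 0.615 and 0.733 on chromosome 9 and 0.362, 0.265 and 0.753 on chromosome 2 for TET2, OGT and H2B S112GlcNAc.

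**Figure D5:**
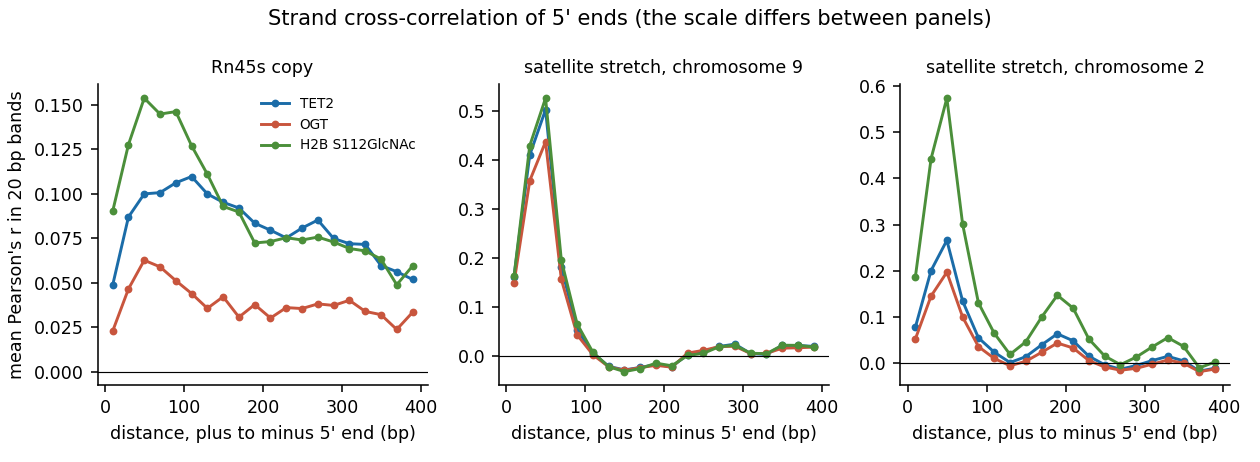
Pearson's r between plus-strand 5′ ends and minus-strand 5′ ends a given distance to the right, averaged in bands of 20 bp, for the Rn45s copy and the satellite stretches (1 line per library; the vertical scale differs between panels). The satellite stretches peak at 40 to 59 bp in each library and are far lower at 100 to 119 bp. On chromosome 2 a smaller rise follows at 180 to 199 bp. The Rn45s values are low and broad, with TET2 highest at 100 to 119 bp.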

How the data were processed

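The authors deposited 3 lists of aligned reads, 1 read per line, with start, end and strand, and with a deposited score that was the same in every line and was not used. CASAVA 1.4, Bowtie 0.12.2 and the build mm9 are named, without roles, per the submitters' processing notes. The treatment of repeated reads and of reads that match several places, not given in the sources used here, matters: at a repeated gene it bears on every count. Reads were placed by their 5′ end in the Rn45s interval, in 100 bp bins and 1 kb segments, and scaled to chromosomes 1 to 19, with 50 kb flanks. Ratios have Clopper-Pearson intervals and levels Poisson intervals (Python 3.11.15, scipy 1.17.1). The interval script was tested on simulated data. With 1 library per antibody no p-value is given. Named bins and windows follow a rule: the 5 fullest bins, bins and segments at either end of each ratio, and the 5 fullest and 5 nearest windows. Members and lists were chosen with earlier results of these data known. Genes of RNA polymerase I and rRNA processing were not analysed here, since no mm9 annotation was used.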

Additional observations from a re-analysis of the deposited data

How the results depend on the processing

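No paired analysis was possible because the 3 antibodies had a single library apiece. Of 72 values under an alternative, 42 stayed within the 95% interval of the reported value, 26 moved outside it and 4 changed side of 1. Counting distinct 5′ ends gave levels of 1190.0, 1259.9 and 1273 RPM for TET2, OGT and H2B S112GlcNAc, and folds over the flanks of 719 and 727.5 for TET2 and H2B S112GlcNAc. The ratios then were 0.944, 1.07 and 1.01 for TET2 over OGT, H2B S112GlcNAc over TET2 and H2B S112GlcNAc over OGT at Rn45s, 0.751, 0.966 and 0.725 at the chromosome 9 satellite, and 0.630, 0.862 and 0.543 at that of chromosome 2. Positions run out in full stretches, so fewer distinct ends follow in part by construction. Scaling to all reads gave 1455 for TET2 and 1760.1 for H2B S112GlcNAc, and leaving the 3 repeats out of the scale gave 1632, 1468 and 1982. On the covered bins alone the fold was 1410.1 for TET2 and 1541 for H2B S112GlcNAc, and against the mean of chromosomes 1 to 19 it was 464, 418 and 562. Scaling by the median of 10 kb bins, a whole number of at most 14 reads, gave ratios of 1.15 and 1.23 for H2B S112GlcNAc over TET2 and OGT, and scaling by flank reads 1.02, 1.09 and 1.11. In 200 bp bins r of TET2 and OGT was 0.95. For the moves of scale and bin width the cause was not tested. A cap of 5 reads per position, the middle of the read and leaving out the fullest bin moved none of the 3 ratios at Rn45s outside its interval. The cap could hardly move them, since only 10 TET2, 0 OGT and 31 H2B S112GlcNAc positions held more than 5 reads. The middle of the read could not either, since empty bins border the covered stretch inside the interval. A floor of 200 reads in place of 300, added after seeing the data, let 2 of 208 windows past the H2B S112GlcNAc to OGT ratio of Rn45s. OGT, with 35 flank reads, limits the folds most.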
